A study of Mus musculus with 55 samples.

Results

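The synaptic scaling effectors described here are 8 mouse genes: the neuronal pentraxins Nptx1 and Nptx2, the pentraxin receptor Nptxr, the cyclooxygenase Ptgs2, the polo-like kinases Plk2 and Plk3, the scaffold Homer1 and the neuritin Nrn1. They were taken by name from the count tables of 2 experiments on primary cultures of embryonic mouse forebrain neurons, where they are 8 of 29680 genes with a symbol, and all 8 passed the filter on low counts in both experiments. The stimuli experiment held 27 libraries at 21 days in vitro (21DIV). Its groups were unstimulated neurons (basal, n = 3), neurons silenced with 1 µM tetrodotoxin (TTX), a sodium channel blocker, for 48 h (basal TTX, n = 4), and neurons treated with 50 µM bicuculline (Bic), a GABA-A receptor blocker, for 15, 45 or 180 min (n = 2 each). The others were treated with 55 mM KCl for 15, 45 or 180 min (n = 2 each) or taken at those times after TTX was washed out of silenced cultures (TTXw; n = 3, 2 and 3). The maturation experiment held 28 libraries. At each of 7DIV and 23DIV, neurons were basal, given KCl, or given Bic plus 2.5 mM 4-aminopyridine, a potassium channel blocker (Bic+4AP), for 15 or 180 min, with 3 libraries per group except 2 in each Bic+4AP group at 23DIV. All cultures came from cortex and hippocampus of CD1 embryos of mixed sex and carried no genetic change. Basal TTX was the control of TTXw, and the study's methods say of controls that they were washed too, without naming these libraries. Basal was the control of the other stimuli. The labels do not say that libraries of a group came from separate cultures, so the p-values measure the spread between these libraries, which may be technical. The column headers hold a code that starts with A in all TTX, TTXw and 180 min libraries of the stimuli experiment. It starts with B in Bic and KCl at 15 and 45 min, and basal libraries hold both. At 7DIV it starts with A or B and at 23DIV with C, D or E, with E only for Bic+4AP at 180 min. The labels do not say what this letter means.

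Synaptic scaling is a slow adjustment of the strength of all excitatory synapses of a neuron that opposes a lasting change in its firing. In cultured forebrain neurons, prolonged TTX raises the number of AMPA-type glutamate receptors at synapses and prolonged Bic lowers it. The pentraxins are secreted or membrane-bound lectin-like proteins that cluster AMPA receptors, Ptgs2 makes prostaglandins in excitatory neurons, Plk2 and Plk3 are kinases induced by activity, of which Plk2 removes spine proteins during overactivity, Homer1 links glutamate receptors to the postsynaptic density, and Nrn1 is a membrane-anchored protein that promotes spine and synapse growth.

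Among the promoters of these genes, those of Plk2, Homer1, Plk3 and Ptgs2 could be read from RefSeq on GRCm38.p6, the same build as mm10, and they are shown because the cAMP response element (CRE) is the element through which activity reaches many such genes. The search covered the motif TGACGTCA, its core TGACG and the E-box CACGTG on both strands, from 250 bases before the annotated start to 50 after it. The full CRE lay in 1.79% of 32851 promoters, its core in 20.8% and the E-box in 7.15%. The bases before the start of Plk2 (chr13:110394924-110395043, plus strand), Homer1 (chr13:93303637-93303756, plus strand) and Plk3 (chr4:117133964-117134083, minus strand) are given 5′ to 3′, and for Ptgs2 the first bases after the annotated start (chr1:150100031-150100060, plus strand), with the core on either strand in capitals.
Plk2: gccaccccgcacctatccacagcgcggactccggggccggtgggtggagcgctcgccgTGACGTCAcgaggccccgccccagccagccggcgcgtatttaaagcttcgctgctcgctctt
Homer1: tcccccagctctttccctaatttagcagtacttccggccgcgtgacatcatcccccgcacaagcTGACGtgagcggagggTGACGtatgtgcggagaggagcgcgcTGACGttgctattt
Plk3: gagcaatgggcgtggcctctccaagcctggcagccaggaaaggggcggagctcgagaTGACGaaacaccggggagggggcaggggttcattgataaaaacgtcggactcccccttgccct
Ptgs2: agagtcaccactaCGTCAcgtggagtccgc
Plk2 was the single promoter of the 4 with the full CRE, which began 62 bases before the start and holds the core on both strands. Homer1 has several annotated starts, and promoters were read for those at 93303757 and 93308034. It had 3 cores, at 56, 40 and 14 bases before the first of these, and none at the other. The Homer1 transcripts counted below start at 93304799 and 93304495 in GENCODE M21, so the stretch shown is not directly before either. Plk3 had 2 cores, of which the nearer, at 63 bases before the start, is in the stretch shown. In Ptgs2 the core lay on the minus strand 14 bases after the annotated start, where its last letters are also the first letters of an E-box. A match of letters is a description of the sequence and not a site of binding.

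Counts on genes ran from 1176887 to 3907601 per library in the stimuli experiment and from 1659263 to 14008626 in the maturation experiment. Levels are given as CPM, counts scaled to a common library total after normalization between libraries by the TMM method of edgeR. Differences are log2 fold changes with their standard errors (SE) from the quasi-likelihood test of edgeR, with p-values adjusted by Benjamini-Hochberg over all genes tested. A gene was called where the adjusted p was under 0.05 and the change at least 1.5-fold. Arc, Fos and Npas4, which are induced by activity, were called lower after 48 h TTX and higher at each time of Bic. The cultures held glia: the summed level of 10 astrocyte markers ran from 499 to 4888 CPM in the maturation and from 1772 to 12578 CPM in the stimuli experiment, and that of 8 neuron markers from 5033 to 7554 and from 2490 to 6681 CPM. Microglial and vascular markers summed to at most 20.6 and 36.5 CPM in any library.

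Silencing for 48 h with TTX lowered 6 of the 8 genes and raised 1, Nptx1. Ptgs2 and Nptx2 had the largest falls, 13.0- and 6.42-fold, followed by Plk3, Nrn1, Plk2 and Nptxr. Homer1 passed the adjusted p but not the fold. Against 7 of 8 members called, 21.6% of all genes tested were called (10.8% higher and 10.8% lower), and the median log2 fold change of the members was -1.39 beside 0.00 over all genes. The basal and basal TTX libraries did not overlap for any of the 8 genes, nor did they for 35.2% of all genes tested.

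Nptx1 had CPM of 57.3, 76.7 and 64.1 in the basal libraries and of 135, 156, 215 and 236 after TTX. All 4 silenced libraries lay above all basal ones, and the log2 fold change was 1.503 ± 0.17 (SE, adjusted p = 5.43e-09). Nptx2, also known as Narp, had CPM of 78.3, 147 and 80.8 in the basal libraries and of 14.0, 11.6, 19.3 and 17.7 after TTX. Its change was therefore opposite to that of Nptx1, with a log2 fold change of -2.68 ± 0.24 (adjusted p = 1.97e-11). Nptxr, the membrane-bound pentraxin, had CPM of 1109, 1187 and 1425 in the basal libraries and of 686, 694, 919.7 and 931 after TTX, a log2 fold change of -0.62 ± 0.12 (adjusted p = 5.45e-05). Its fold stood close to the 1.5-fold limit and fell under it without basal TTX replicate 1 (-0.55), basal TTX replicate 2 (-0.55) or basal replicate 5 (-0.51). The 3′ end of Nptxr (chromosome 15, 79786351 to 79804709) is shared with Npcd, a longer gene from 79786351 to 79834333 that joins it to its neighbor. The 2 genes had equal counts in 26 of 27 libraries of the stimuli and in 24 of 28 of the maturation experiment, so values of Nptxr hold for both.

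Ptgs2, the inducible cyclooxygenase, had CPM of 54.2, 79.3 and 43.2 in the basal libraries and of 7.98, 2.32, 3.58 and 4.34 after TTX. Its libraries after TTX held between 4 and 12 counts, and the log2 fold change was -3.70 ± 0.33 (adjusted p = 1.35e-11). Plk2 had CPM of 80.6, 79.7 and 83.4 in the basal libraries and of 33.3, 28.5, 38.6 and 46.7 after TTX, a log2 fold change of -1.12 ± 0.16 (adjusted p = 8.33e-07). Plk3, the other polo-like kinase, was near the limit of detection, with counts of 16, 17 and 14 in the basal libraries and of 1, 1, 3 and 5 after TTX. Its log2 fold change of -1.96 ± 0.58 (adjusted p = 0.00845) rests on these few counts. Plk3 passed the filter on low counts only through libraries never given TTX, so its fall was partly fixed by the filter. Nrn1 had CPM of 36.7, 49.2 and 47.02 in the basal libraries and of 19.96, 6.39, 15.7 and 14.1 after TTX, a log2 fold change of -1.66 ± 0.25 (adjusted p = 1.31e-06). Homer1 had CPM of 180.0, 193 and 200.2 in the basal libraries and of 139, 114, 159.6 and 148 after TTX, a log2 fold change of -0.45 ± 0.12 (adjusted p = 0.00455).

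Markers of glia differed between the same libraries. The 10 astrocyte markers summed to 1772 to 2211 CPM in the basal and 5827 to 6760.1 CPM in the basal TTX libraries, with all 10 called higher after TTX, and 6 of 8 tested markers of the oligodendrocyte lineage were called higher. The 8 neuron markers summed to 5112 to 5367 and 4052 to 4574 CPM, with 1, Snap25, called lower. In such bulk libraries, fewer cells of a type and less RNA per cell cannot be told apart, and the female-specific transcript Xist ran from 307 to 315 CPM in the basal and from 363 to 484 CPM in the basal TTX libraries, so treatment and culture cannot be told apart either. With counts scaled to the summed neuron markers in place of TMM, a scaling chosen after seeing the data that moves the median of all genes by 0.28, Nptxr was no longer called (-0.34), and the other 6 called genes kept their call and direction, with Nptx1 at 1.78 and Ptgs2 at -3.42.

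**Figure D1:**
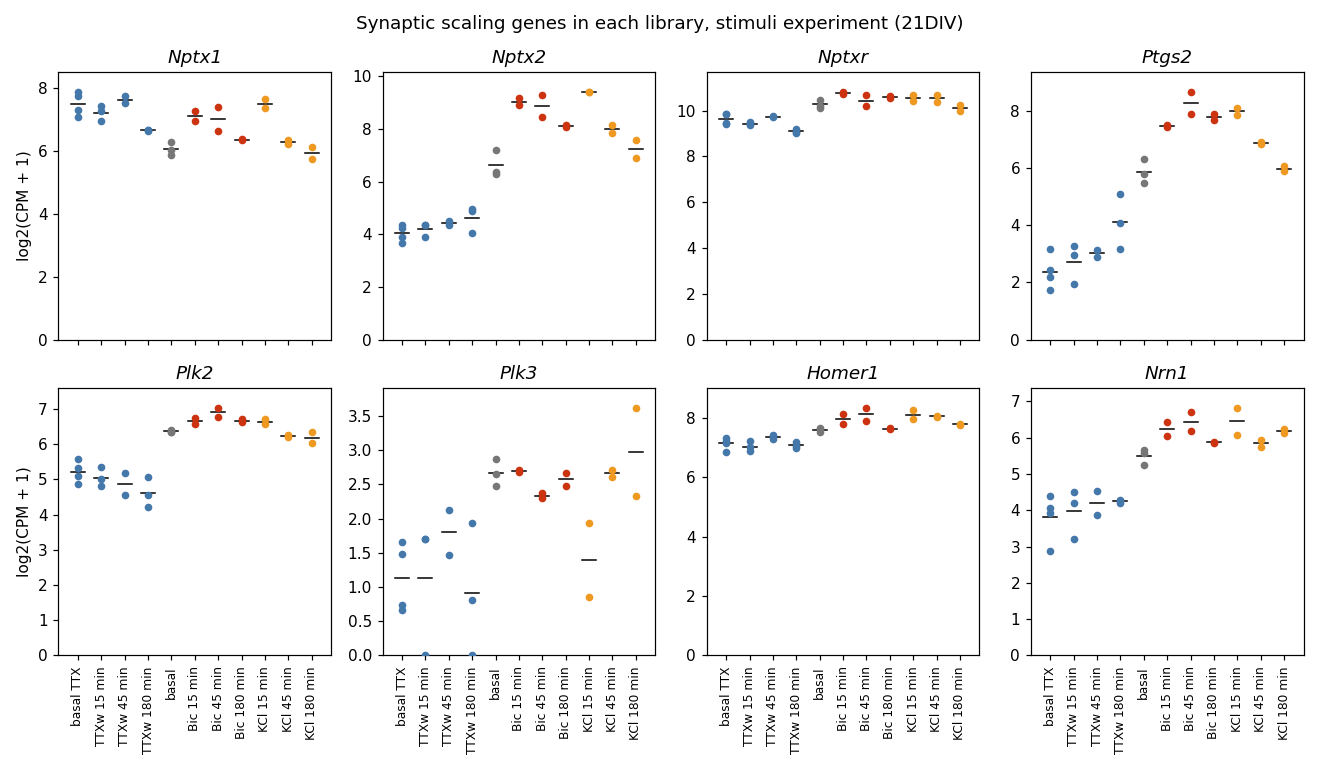
Levels of the 8 genes in each of the 27 libraries of the stimuli experiment at 21DIV, as log2(CPM + 1) on the vertical axis of each panel, by condition on the horizontal axis, with points for libraries and lines for their means. The silenced and washed-out libraries (blue) lie below the basal ones (gray) for Nptx2, Nptxr, Ptgs2, Plk2, Homer1 and Nrn1, and above them for Nptx1.

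With Bic, some of these genes were called against basal, all of them higher. The Bic libraries have header letter B at 15 and 45 min and A at 180 min, while basal holds both. Letter and treatment thus cannot be fully told apart. Nptx1, Nptx2, Nrn1 and Ptgs2 were called higher at 15 and 45 min, where 2.4% and 4.5% of all genes were called higher (3.42% and 7.45% in either direction), and Nptx2 and Ptgs2 at 180 min, where 0.69% were (0.765%). Nptxr, Plk2, Plk3 and Homer1 were not called at any time. Since TTX and Bic were set against the same 3 basal libraries, their values are given side by side and not correlated. For Nptx2, Nrn1 and Ptgs2 the called changes were down with TTX and up with Bic, and for Nptx1 they were up with both.

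Nptx2 had CPM of 581 and 477 at 15 min of Bic, 349.8 and 628 at 45 min and 285 and 272 at 180 min. Each of these 6 libraries lay above the 3 basal ones, with log2 fold changes of 2.39 ± 0.21 (adjusted p = 2.34e-10), 2.27 ± 0.21 (adjusted p = 2.31e-10) and 1.46 ± 0.21 (adjusted p = 1.11e-05). Ptgs2 had CPM of 182 and 173 at 15 min, 238 and 408 at 45 min and 205 and 239 at 180 min, again above every basal library. Its log2 fold changes were 1.60 ± 0.24 (adjusted p = 2.83e-05), 2.46 ± 0.23 (adjusted p = 2.32e-10) and 1.92 ± 0.23 (adjusted p = 1.93e-07). Nptx2 and Ptgs2 kept these calls under each alternative tried. The 45 min libraries differed from each other for most members, with replicate 2 the higher.

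Nptx1 had CPM of 153 and 124 at 15 min, 97.4 and 169 at 45 min and 79.7 and 81.9 at 180 min. Its log2 fold changes against basal were 1.09 ± 0.20 (adjusted p = 0.000586), 1.03 ± 0.20 (adjusted p = 3.60e-04) and 0.30 ± 0.20 (adjusted p = 0.715), so the rise was not called at 180 min. Without Bic 15 min replicate 2 the first of these was 0.94 (adjusted p = 0.0740), and without Bic 45 min replicate 2 the next was 0.59 (adjusted p = 0.177). Nrn1 had CPM of 84.9 and 64.8 at 15 min, 71.6 and 103 at 45 min, then 58.04 and 56.8 at 180 min, with log2 fold changes of 0.79 ± 0.24 (adjusted p = 0.0498), 0.99 ± 0.23 (adjusted p = 0.00332) and 0.38 ± 0.23 (adjusted p = 0.680). Its call at 15 min was lost with DESeq2 (0.81), with transcripts summed (0.80), with the scaling to neuron markers (0.51), without basal replicate 1 (0.70) or 5 (0.84) and without Bic 15 min replicate 2 (0.58). Its call at 45 min was lost with transcripts summed (1.01) and without Bic 45 min replicate 2 (0.73). Nrn1 has a single transcript, so summing left its own counts unchanged.

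The genes not called with Bic had smaller values. Homer1 stood at 0.55 ± 0.14 at 45 min (adjusted p = 0.00796) and Plk2 at 0.56 ± 0.17 (adjusted p = 0.0310), both under 1.5-fold. Nptxr had log2 fold changes of 0.50, 0.18 and 0.31 at the 3 times, and Plk3, with 6 to 20 counts per library, of 0.03, -0.40 and -0.11. Over the same libraries the astrocyte markers summed to 3284 to 3303 CPM at 15 min, 3666 to 4137 CPM at 45 min and 2162 to 2343 CPM at 180 min, against 1772 to 2211 CPM in basal, and the neuron markers to 6259 to 6472, 6247 to 6495 and 5785 to 5967 CPM. Their part in these values was not tested, and with the scaling to neuron markers Nptx2, Ptgs2 and Nptx1 kept their calls at 15 and 45 min.

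**Figure D2:**
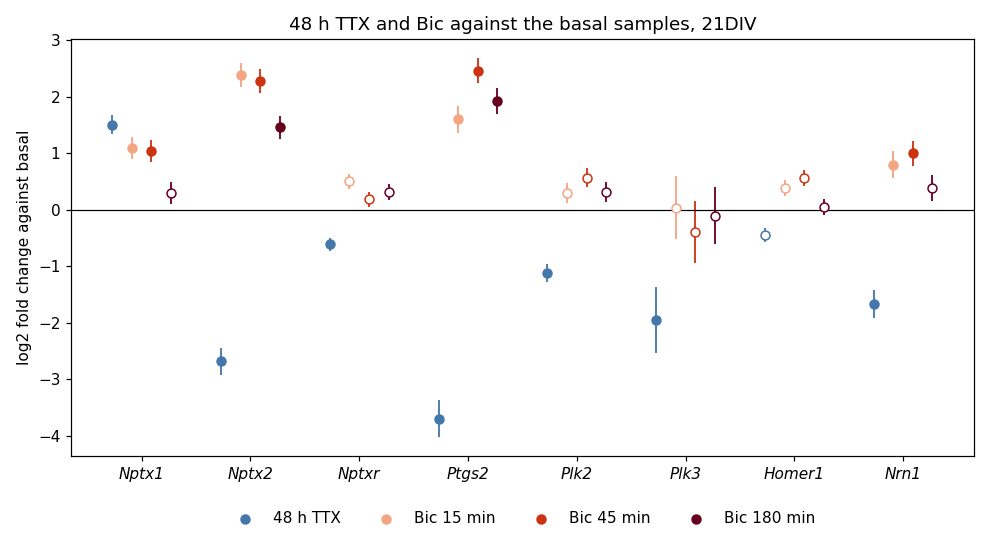
Log2 fold changes of the 8 genes against the 3 basal libraries at 21DIV (vertical axis) after 48 h TTX (n = 4) and after 15, 45 and 180 min of Bic (n = 2 each), with standard errors from edgeR as bars. Filled points were called, TTX points lie below 0 for every gene but Nptx1, and called Bic points lie above 0.

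Set directly against each other, Bic and TTX differed in most of the set. At 15 and 45 min of Bic the header letter differs too, so it and the treatment cannot be told apart. At 15, 45 and 180 min of Bic, 7, 6 and 7 of the 8 genes were called, against 20.5%, 19.4% and 24.7% of all genes, and all but 1 of these calls were higher with Bic. Ptgs2 was 39.3-, 71.5- and 49.1-fold higher than after TTX (log2 fold changes 5.30 ± 0.32, 6.16 ± 0.30 and 5.62 ± 0.30, adjusted p at most 1.88e-16). Nptx2 was 33.6-, 30.99- and 17.6-fold higher (log2 fold changes 5.07 ± 0.24, 4.95 ± 0.24 and 4.14 ± 0.24, adjusted p at most 5.21e-17). Nrn1 followed with 2.46 ± 0.27, 2.66 ± 0.25 and 2.05 ± 0.26, and Plk2 with 1.41 ± 0.18, 1.68 ± 0.17 and 1.43 ± 0.17 (adjusted p at most 4.63e-08 and 1.28e-07). These 4 genes kept their calls at each time under each alternative, the scaling to neuron markers included.

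Nptx1 was the exception to the direction. It was -0.41 and -0.47 against TTX on the log2 scale at 15 and 45 min (adjusted p = 0.108 and 0.0545), with levels above basal in both arms, and was called lower at 180 min (-1.21 ± 0.19, adjusted p = 3.62e-06). Nptxr was called higher at each time (1.12 ± 0.13, 0.80 ± 0.13 and 0.93 ± 0.13), and Homer1 at 15 and 45 min (0.83 ± 0.14 and 1.00 ± 0.13). None of these calls of Nptxr and Homer1 held with the scaling to neuron markers, which moves the median of all genes by -0.56, -0.56 and -0.44 in the 3 comparisons and under which Nptxr stood at 0.57, 0.24 and 0.50 and Homer1 at 0.27 and 0.45. Under it Nptx1 was called lower at 15 and 45 min as well (-0.96 and -1.03). Without Bic 45 min replicate 2, Nptxr at 45 min was not called (0.58). Plk3 was called at 15 and 180 min (1.99 ± 0.67 and 1.85 ± 0.62, adjusted p = 0.0250 and 0.0198), and each call was lost without basal TTX replicate 1 (1.82 and 1.67), basal TTX replicate 2 (1.76 and 1.62), Bic replicate 2 (1.98 and 1.97) or 3 (2.04 and 1.76), and with the scaling to neuron markers (1.45 and 1.42). Its counts at 45 min gave 1.56 ± 0.66 (adjusted p = 0.0830). Since Plk3 passed the filter only through libraries never given TTX, a higher level with Bic was partly fixed by the filter.

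Homer1 is transcribed in long forms, which link receptors to the synapse, and in a short form, Homer1a, that ends early and uncouples them. The table of counts gives them apart. The values above are those of the long form (NM_147176.3, chromosome 13, 93304799 to 93403681 in GENCODE M21 on GRCm38), whose counts 2 other long forms repeat nearly count for count. The short form (NM_011982.3, 93304495 to 93360462) ends earlier in the gene and held 158 counts over the 27 libraries of the stimuli experiment, against 12210 for the long form.

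The short form had CPM of 1.71, 1.85 and 0.754 in the basal and 1.98, 2.31, 0 and 0.719 in the basal TTX libraries, from 0 to 6 counts each. With Bic it had CPM of 4.80 and 1.79 at 15 min, 6.52 and 3.19 at 45 min, then 3.04 and 3.98 at 180 min. With KCl it had 4.05 and 2.17, 4.43 and 5.91 and 1.61 and 2.28 CPM at the same times. The 45 min libraries of both stimuli thus lay above the basal ones, and since it passed the filter on low counts only through the libraries where it was highest, a difference there was partly fixed by the filter. Against TTX, the log2 fold change at 45 min of Bic was 1.90 ± 0.65 (adjusted p = 0.0271), with 19.4% of all genes called. It was not called without basal TTX replicate 3 (1.59, adjusted p = 0.0669) or 4 (1.65, adjusted p = 0.0889). Against basal it was 1.66 ± 0.62 at 45 min of Bic (adjusted p = 0.0889) and 1.78 ± 0.61 at 45 min of KCl (adjusted p = 0.211), neither called. In the maturation experiment it held 0 to 37 counts per library and was not called in any comparison, with CPM from 0 to 6.76.

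**Figure D3:**
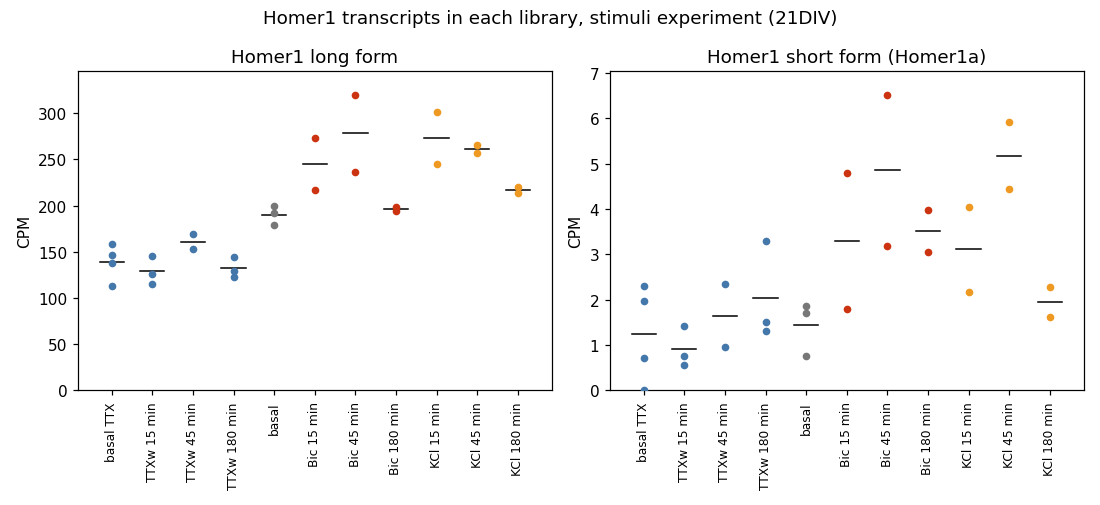
CPM of the long form (left) and the short form (right, Homer1a) of Homer1 on the vertical axes in each library of the stimuli experiment, by condition, with lines at the means. The short form stays at or under 6.52 CPM in each library, and its 45 min libraries of Bic and KCl lie above the basal ones.

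KCl, which depolarizes cells directly, raised 4 genes at 15 min and fewer later. Here too the header letter is B at 15 and 45 min and A at 180 min, while basal holds both. It and the treatment cannot be fully told apart. Nptx1, Nptx2, Nrn1 and Ptgs2 were called higher at 15 min (4.53% of all genes higher and 7.23% in either direction), Nptx2 and Ptgs2 at 45 min (0.607% and 0.765%) and none at 180 min (0.765%). By edgeR, 2 of the 8 had an unadjusted p under 0.05 at 180 min, and DESeq2 called none. Nptx2 had CPM of 684 and 675 at 15 min, 228 and 286 at 45 min, then 191 and 117 at 180 min, with log2 fold changes of 2.74 ± 0.21, 1.34 ± 0.21 and 0.58 ± 0.23 (adjusted p = 3.51e-12, 3.21e-04 and 0.264). Its libraries at 15 min were the highest of the experiment for this gene. Ptgs2 had CPM of 232 and 274, 119 and 113 and 58.2 and 66.0, with log2 fold changes of 2.10 ± 0.23, 0.98 ± 0.24 and 0.09 ± 0.27 (adjusted p = 2.07e-08, 0.0306 and 0.940). At 180 min the KCl and basal libraries of Ptgs2 overlapped. The call of Ptgs2 at 45 min was lost without either KCl library (0.96 and 1.04), without basal replicate 1 (0.94) or 5 (0.81), and with DESeq2 (0.99), transcripts summed (0.99) or the scaling to neuron markers (0.75).

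Nptx1 had CPM of 198 and 165 at 15 min of KCl and 73.8 and 80.1 at 45 min, with log2 fold changes of 1.46 ± 0.19 (adjusted p = 1.28e-06) and 0.22 ± 0.21 (adjusted p = 0.751). Nrn1 had CPM of 66.3 and 113 at 15 min, and its log2 fold change of 1.03 ± 0.23 (adjusted p = 0.00217) was 0.62 (adjusted p = 0.263) without KCl 15 min replicate 2. Plk3 stood at -1.47 ± 0.61 at 15 min (adjusted p = 0.139), with counts of 2 and 9. Plk2, Homer1 and Nptxr lay between -0.16 and 0.52 on the log2 scale over the 3 times, and none was called. The astrocyte markers summed to 3278 to 3334, 2937 to 3008 and 2527 to 2532 CPM at 15, 45 and 180 min of KCl and the neuron markers to 6131 to 6681, 6181 to 6184 and 5695 to 5700.0 CPM, and their part in these values was not tested.

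The decline within each stimulus was tested between neighboring times, in comparisons chosen after seeing the data. From 45 to 180 min the header letter changes as well, so it and time cannot be told apart there. From 15 to 45 min of KCl, Nptx2 fell by 1.40 on the log2 scale (adjusted p = 4.17e-04), Nptx1 fell by 1.24 (adjusted p = 0.00151) and Ptgs2 fell by 1.13 (adjusted p = 0.0202), with 0.416% of all genes called. The call of Ptgs2 was lost with DESeq2 (-1.14) and without KCl 15 min replicate 2 (-1.01) or KCl 45 min replicate 2 (-1.10). All 3 calls were lost with transcripts summed and without KCl 45 min replicate 1, where the values were -1.26, -1.20 and -1.18. From 15 to 45 min of Bic, none of the 8 was called (0.141% of all genes), with Nptx2 at -0.12 ± 0.22 and Ptgs2 at 0.86 ± 0.24 (adjusted p = 0.959 and 0.266). By edgeR, 2 of the 8 had an unadjusted p under 0.05 there, and DESeq2 called none. From 45 to 180 min of Bic, Nptx1 fell by 0.73 (adjusted p = 0.0435) and Nptx2 fell by 0.82 (adjusted p = 0.0294), with 3.04% called. Without Bic 45 min replicate 2 these were -0.26 (adjusted p = 0.694) and -0.32 (adjusted p = 0.614). Both were also lost with transcripts summed (-0.73 and -0.81), with the scaling to neuron markers (-0.61 and -0.69), without Bic 180 min replicate 2 (-0.72 and -0.85) or 3 (-0.75 and -0.78), and Nptx2 with DESeq2 (-0.82). From 45 to 180 min of KCl, 0 of the 8 were called by edgeR or DESeq2 (0.141% of all genes), with 3 at an unadjusted p under 0.05.

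KCl and Bic were also compared at matched times. At 15 min, 0 of the 8 genes and 0.0% of all genes were called by edgeR, DESeq2 called none of the 8, and 2 members had an unadjusted p under 0.05. At 45 min, with 0.682% of all genes called, Nptx2 and Ptgs2 were lower with KCl (-0.93 ± 0.22 and -1.48 ± 0.25, adjusted p = 0.0315 and 2.99e-04). Both calls were lost with DESeq2 (-0.95 and -1.49), with transcripts summed (-0.94 and -1.49) and without Bic 45 min replicate 2, where they stood at -0.45 and -1.04 (adjusted p = 0.742 and 0.137). The call of Nptx2 was also lost without either KCl 45 min library (-0.80 and -1.12). At 180 min Ptgs2 was the only member called, with 0.732% of all genes, at -1.83 ± 0.27 (adjusted p = 7.02e-05), and it stayed called under each alternative (-1.96 to -1.61). The Ptgs2 libraries at 180 min had CPM of 58.2 and 66.0 with KCl and 205 and 239 with Bic.

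Release from TTX for up to 180 min left most of the set near its silenced level. At 15 and 45 min after TTX was washed out, 0 of the 8 genes were called by edgeR or DESeq2, beside 0.0% and 0.383% of all genes, and no member had an unadjusted p under 0.05. The activity genes Arc, Fos and Npas4 were not called at 15 min either. They were called higher at 45 min (1.91 ± 0.23, 4.15 ± 0.24 and 1.27 ± 0.26), and Arc and Fos but not Npas4 at 180 min. Nptx2 had CPM of 19.6, 19.4 and 14.1 at 15 min, 21.8 and 19.2 at 45 min and 15.7, 28.4 and 30.4 at 180 min, all below the lowest basal library, at 1.58-fold of TTX in the last (log2 fold change 0.66 ± 0.31, adjusted p = 0.131). At 180 min, with 14.0% of all genes called, Ptgs2 was higher than in basal TTX, and Nptx1 and Plk2 were lower. Ptgs2 had CPM of 15.7, 8.04 and 33.4, from 17 to 44 counts, against 7.98, 2.32, 3.58 and 4.34 in basal TTX, a log2 fold change of 1.97 ± 0.42 (adjusted p = 0.000677). It was called under each alternative, though its 3 libraries still lay below all basal ones. Nptx1 had CPM of 101, 98.9 and 101, a log2 fold change of -0.90 ± 0.17 (adjusted p = 1.59e-04), between its basal and its silenced levels. Plk2 had CPM of 17.7, 22.7 and 32.6, a log2 fold change of -0.64 ± 0.20 (adjusted p = 0.0212), which overlapped basal TTX. Nptxr had CPM of 517, 535 and 581, all below the basal TTX libraries, and its log2 fold change of -0.57 ± 0.12 (adjusted p = 4.79e-04) was just under 1.5-fold. It was called lower without basal TTX replicate 1 (-0.64) or 2 (-0.64) or TTXw 180 min replicate 3 (-0.62).

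The libraries at 180 min after release stood apart in their markers: astrocyte markers summed to 8293 to 12578 CPM, with 6 of 10 called higher than in basal TTX, and neuron markers to 2490.5 to 3035 CPM, with 4 of 8 called lower. The scaling to neuron markers moves the median of all genes in this comparison by 0.69. Under it Ptgs2 kept its call (2.65), Nptx1 (-0.20) lost it, Plk2 turned in sign (0.04), and Homer1 (0.61, against -0.08), Nptx2 (1.34) and Nrn1 (1.07) were called higher. The call of Plk2 was also lost in the fit of the compared groups only (-0.63), without basal TTX replicate 4 (-0.48) and without TTXw 180 min replicate 1 (-0.47) or 2 (-0.59).

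The response to TTXw, taken against basal TTX, was set against the response to Bic, taken against basal. A difference of responses was called at an adjusted p under 0.05. At 15 min (2.0% of all genes called), the log2 responses of Nptx2, Nptx1 and Nptxr were lower with TTXw than with Bic, with differences of -2.21 ± 0.38, -1.40 ± 0.26 and -0.72 ± 0.18 on the log2 scale (adjusted p = 0.000985, 0.00191 and 0.0235). At 45 min (1.81%), that of Nptx2 was (-1.90 ± 0.40, adjusted p = 0.00746), and at 180 min (9.8%) those of Nptx1, Nptxr and Plk2 were (-1.19 ± 0.26, -0.88 ± 0.18 and -0.95 ± 0.27, adjusted p = 0.00241, 0.00113 and 0.0173). At 180 min these 3 genes stood at -0.90, -0.57 and -0.64 with TTXw and at 0.30, 0.31 and 0.31 with Bic. The difference of Nptx2 at 15 min was called under each alternative. That of Nptxr at 15 min was lost with transcripts summed (-0.75), with the scaling to neuron markers (-0.40) and without basal TTX replicate 3 (-0.66), basal replicate 1 (-0.68), TTXw 15 min replicate 2 (-0.70) or 3 (-0.71) or Bic 15 min replicate 3 (-0.72). That of Nptx2 at 45 min was lost without TTXw 45 min replicate 3 (-1.81) or Bic 45 min replicate 2 (-1.45). That of Plk2 at 180 min was lost with transcripts summed (-0.95) and without basal TTX replicate 4 (-0.82), Bic 180 min replicate 3 (-0.95) or TTXw 180 min replicate 1 (-0.78). With the scaling to neuron markers, which moves the median of all genes at 180 min by 0.85, the 3 at that time were lost (-0.34, -0.04 and -0.11) and Homer1 turned from -0.12 to 0.72.

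The order of the 11 conditions by mean level differed between the genes. Ptgs2 and Plk2 were highest at 45 min of Bic, as was the long form of Homer1, whereas Nptx2 and Nrn1 were highest at 15 min of KCl, Nptxr at 15 min of Bic and Nptx1 at 45 min of TTXw. The lowest condition was basal TTX for Ptgs2, Nptx2 and Nrn1, TTXw at 15 min for Homer1, TTXw at 180 min for Nptxr, Plk2 and Plk3, and KCl at 180 min for Nptx1. Of the 10 neighboring pairs in this order, the libraries did not overlap in 5 for Ptgs2, 4 for Nptx2 and Plk2, 3 for Nptxr and Nrn1, 2 for Homer1 and Plk3 and 1 for Nptx1. The order comes from these same means and most groups hold 2 libraries, so these counts test no difference. The share over all genes was not computed. Over the means of the 11 conditions, Nptx2 and Ptgs2 had a Pearson correlation of 0.98, Nptx2 and Nrn1 of 0.97 and Ptgs2 and Nrn1 of 0.96. These points share the silenced arm and the same libraries and are a description. Among 9324 genes with an average log2 CPM of at least 3, the closest in pattern to Nptx2 were Hsph1, Inhba and Ppp2ca (0.99 each), to Ptgs2 Lrp8, Klf5 and Inhba (0.99, 0.98 and 0.98), and to Nrn1 Fbxw7, Rock2 and Rheb (0.99 each). Those closest to Plk2 were Rgs4, Penk and Ptpn5 (0.98 each), to Homer1 Bdh1, Erc1 and Kalrn (0.98 each), to Nptx1 Zfp704, Slc30a3 and Foxo6 (0.93 each), and to Plk3 Rab27b, Creg2 and Zc3h12b (0.96, 0.95 and 0.95). For Nptxr they were Npcd, which holds the same counts, Galnt17 and Pdlim1 (0.98 each for the last 2).

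Neurons at 23DIV had higher levels of 5 of the 8 genes than neurons at 7DIV and a lower level of 1. In the 6 basal libraries of the maturation experiment, Ptgs2, Nptx2, Nptx1, Nrn1 and Nptxr were called higher at 23DIV and Plk3 lower, beside 33.1% of all genes (18.2% of all genes higher and 14.9% lower). The median log2 fold change of the members was 1.54 beside 0.01 over all genes. The stages share no header letter, so letter and stage cannot be told apart. Ptgs2 had CPM of 2.37, 2.45 and 4.06 at 7DIV, from 4 to 15 counts, and of 25.3, 29.7 and 41.6 at 23DIV, a log2 fold change of 3.37 ± 0.33 (adjusted p = 3.68e-06). In this fit of 6 libraries Ptgs2 passed the filter on low counts only through those at 23DIV, so its higher level was partly fixed by the filter. Nptx2 had CPM of 21.8, 23.3 and 21.1 at 7DIV and 105, 102 and 113 at 23DIV (2.31 ± 0.17, adjusted p = 2.46e-07). Nptx1 had CPM of 9.95, 10.4 and 13.3 and 62.8, 35.1 and 43.4 (2.06 ± 0.27, adjusted p = 3.93e-05). All 3 pentraxin genes were therefore higher in the older cultures, with Nptxr at 480.4, 477 and 420.5 and 1297, 1143 and 1310.2 CPM (1.47 ± 0.12, adjusted p = 5.50e-07). Nrn1 had CPM of 48.3, 26.9999 and 29.3 at 7DIV and 86.1, 115 and 111 at 23DIV (1.61 ± 0.22, adjusted p = 6.35e-05).

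Plk3 had CPM of 7.11, 9.82 and 15.4 at 7DIV and 5.02, 5.01 and 3.65 at 23DIV (-1.26 ± 0.39, adjusted p = 0.0199), and its call was lost without 7DIV basal replicate 4 (-0.89) or 23DIV basal replicate 3 (-1.10). Plk2 (0.08 ± 0.18) and Homer1 (-0.11 ± 0.18) were not called (adjusted p = 0.747 and 0.654). Astrocyte markers summed to 499 to 755 CPM at 7DIV and 3724 to 4791 CPM at 23DIV, and neuron markers to 5294 to 5515 and 6437 to 7512 CPM. With the scaling to neuron markers, which moves the median of all genes by -0.40, the 6 calls and their directions remained.

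Among the 8 genes no change was called at 7DIV. By edgeR, 0 were called with KCl or Bic+4AP at 15 or 180 min, where 0.0%, 1.98%, 0.0% and 0.0% of all genes were called (KCl at 15 and 180 min, then Bic+4AP). Members with an unadjusted p under 0.05 numbered 2 with KCl at 180 min and 0 in the other 3 comparisons, in which DESeq2 called none. Those 2 were Plk2, with 0.74 ± 0.21 (adjusted p = 0.0577), which DESeq2 called (0.75, adjusted p = 0.0256), and Nrn1, with 0.49 ± 0.21 (adjusted p = 0.291). Plk2 had CPM of 47.2, 80.4 and 96.3 with KCl at 180 min and of 44.1, 44.8 and 45.5 in basal. Of the activity genes, Fos (2.03 ± 0.28) and Npas4 (1.94 ± 0.31) were called higher in the same libraries, so a response to this treatment was measured there. Arc was not called in them (-0.62 ± 0.46, adjusted p = 0.641). In the other 3 comparisons at 7DIV, Arc, Fos and Npas4 were not called. Ptgs2 was near the limit of detection at 7DIV, from 0.222 to 6.62 CPM over the libraries, so a change in it could be missed there.

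At 23DIV, KCl for 15 min raised Nptx2 and Ptgs2, with 6.21% of all genes called. Nptx2 had CPM of 105, 102 and 113 in basal and 332, 363 and 143 with KCl, where replicate 3 was the lowest (1.39 ± 0.26, adjusted p = 0.00101). Ptgs2 had CPM of 25.3, 29.7 and 41.6 in basal and 75.4, 75.8 and 92.2 with KCl (1.32 ± 0.36, adjusted p = 0.0206). Its call was lost with DESeq2 (1.34), with transcripts summed (1.33) and without basal replicate 1 (1.17) or 2 (1.26) or KCl 15 min replicate 3 (1.22). KCl for 180 min raised Plk2, with 4.88% of all genes called. Plk2 had CPM of 51.2, 38.5 and 49.9 in basal and 68.3, 90.0 and 93.9 with KCl (0.85 ± 0.19, adjusted p = 0.00712), and was not called without basal replicate 2 (0.74) or KCl 180 min replicate 3 (0.77).

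With Bic+4AP at 23DIV, 0 of the 8 genes and 0.0511% of all genes were called at 15 min, with no member at an unadjusted p under 0.05 and none called by DESeq2. At 180 min 3 of the 8 and 14.2% of all genes were called. The header letter E occurs only in these 180 min libraries, so it and the treatment cannot be told apart. Ptgs2 had CPM of 255 and 167 at 180 min, 6.52-fold its basal level (2.71 ± 0.40, adjusted p = 2.44e-05). Plk2 had CPM of 119 and 92.3 (1.18 ± 0.21, adjusted p = 2.41e-04). Homer1 was lower, with CPM of 138 and 147 against 188, 317 and 289 in basal (-0.90 ± 0.21, adjusted p = 0.00352), and without Bic+4AP 180 min replicate 2 was not called (-0.86, adjusted p = 0.0632). The stimulated and basal libraries did not overlap for any of the 8 genes there, nor did they for 47.3% of all genes tested. Nptx2 (0.43 ± 0.29), Nptx1 (0.75 ± 0.28), Nrn1 (0.46 ± 0.20), Plk3 (0.86 ± 0.35) and Nptxr (0.13 ± 0.13) were not called. The astrocyte markers summed to 1245 to 2622 CPM in these 2 libraries and to 3724 to 4791 CPM in basal, and the scaling to neuron markers, which moves the median by 0.25, called Nptx1 (0.98), Nrn1 (0.71) and Plk3 (1.10) higher as well.

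**Figure D4:**
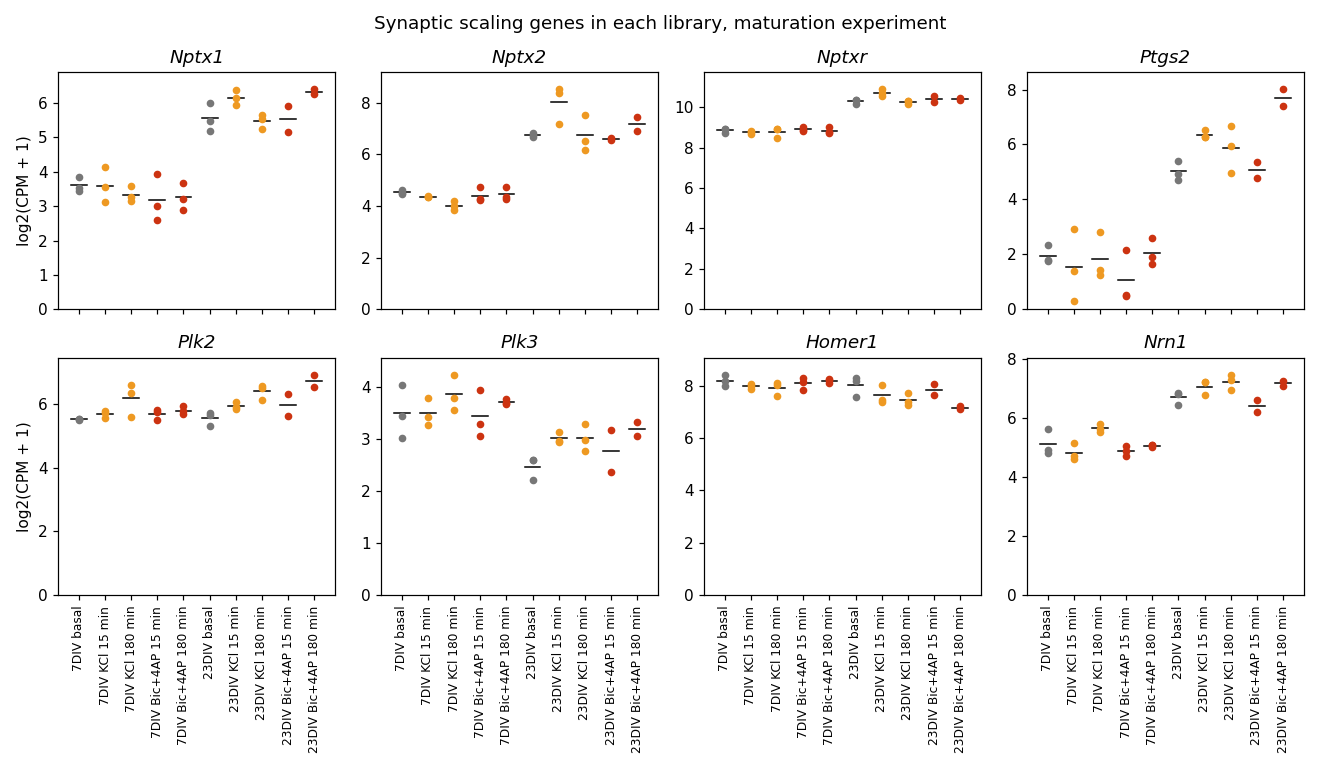
Levels of the 8 genes in each of the 28 libraries of the maturation experiment, as log2(CPM + 1) on the vertical axis of each panel, by stage and stimulus, with lines at the means. The 23DIV libraries lie above the 7DIV ones for Nptx1, Nptx2, Nptxr, Nrn1 and Ptgs2, and Ptgs2 is highest after 180 min of Bic+4AP at 23DIV.

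The response to each stimulus was compared between the stages by an interaction. Of the 8 genes, Nptx2 with KCl at 15 min was called, with a response 1.56 ± 0.42 larger at 23DIV on the log2 scale (adjusted p = 0.0476), beside 2.01% of all genes. At 7DIV Nptx2 had CPM of 19.6, 19.1 and 19.9 with KCl and 21.8, 23.3 and 21.1 in basal, and the 23DIV libraries are given above. The call was lost with transcripts summed (1.56, adjusted p = 0.0740) and without each of the 12 libraries in turn except 23DIV basal replicate 1 and 23DIV KCl 15 min replicate 3, at values from 1.34 to 1.60. For KCl at 180 min and for Bic+4AP at 15 and 180 min, 0 of the 8 were called by edgeR, beside 0.775%, 0.00852% and 4.94% of all genes, and 0, 0 and 4 had an unadjusted p under 0.05. With Bic+4AP at 180 min, Ptgs2 stood at 2.63 ± 0.88 (adjusted p = 0.0760), Nptx1 at 1.12 ± 0.45 (adjusted p = 0.144), Homer1 at -0.90 ± 0.28 (adjusted p = 0.0540) and Plk2 at 0.90 ± 0.30 (adjusted p = 0.0761). DESeq2 called Homer1 there (-0.88, adjusted p = 0.0349). Bic was given alone in the stimuli experiment and with 4-aminopyridine in the maturation experiment, and the 2 tables were normalized separately, so their Bic values are not compared.

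Relatives, partners and other genes of scaling were read from lists. Of 7 family members, 3 were tested in the stimuli experiment. Against basal none was called with 48 h TTX or with Bic at any time. Over all genes, 21.6% were called with TTX and 3.42%, 7.45% and 0.765% with Bic at 15, 45 and 180 min. Homer3, Plk1 and Homer2 stood at 0.25 ± 0.20, 0.35 ± 0.41 and -0.04 ± 0.12 after TTX and at -0.04 ± 0.25, 0.62 ± 0.49 and 0.28 ± 0.15 at 15 min of Bic. In the comparison of stages Homer2 (1.04 ± 0.13) and Ptgs1 (4.07 ± 1.00), the constitutive cyclooxygenase, were higher at 23DIV, where 4 were tested. Beside them, 33.1% of all genes were called there, 18.2% of all genes higher. Ptgs1 was not tested in the stimuli experiment and had a large SE here. If it passed the filter on low counts only through the 23DIV libraries, its direction was partly fixed by the filter.

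Of 23 partners, targets and enzymes of the same steps, 19 were tested, and 3 were called higher and 1 lower after TTX, beside 21.6% of all genes called in either direction, with a median of -0.06. Gria1, an AMPA receptor subunit, was higher (0.65 ± 0.12, adjusted p = 6.05e-05). Ptger3, a receptor for the prostaglandin made downstream of Ptgs2, was lower (-2.78 ± 0.26, adjusted p = 7.75e-11), a fall in the same direction as that of Ptgs2. At 15 min of Bic, Rapgef2, which acts on small GTPases and is phosphorylated by Plk2, was lower (-0.80 ± 0.22, adjusted p = 0.0262). Pla2g4a, which releases the substrate of Ptgs2, stood at 0.97 ± 0.34 (adjusted p = 0.104).

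Of 16 other genes named in work on scaling, 14 were tested, and 1 was called higher and 5 lower after TTX, beside 10.8% of all genes higher and 10.8% lower, with a median of -0.26. Bdnf, a neurotrophin, stood at -4.53 ± 0.19 (adjusted p = 1.26e-20), Camkk2, a kinase upstream of CaM kinases, stood at -1.15 ± 0.12 (adjusted p = 7.50e-10) and Arc, which drives endocytosis of AMPA receptors, at -1.30 ± 0.22 (adjusted p = 8.49e-06). At 15 min of Bic, 3 were called, all higher, beside 2.4% of all genes: Arc (3.31 ± 0.18), Bdnf (0.96 ± 0.18) and Rara, the retinoic acid receptor alpha (1.15 ± 0.32).

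**Figure D5:**
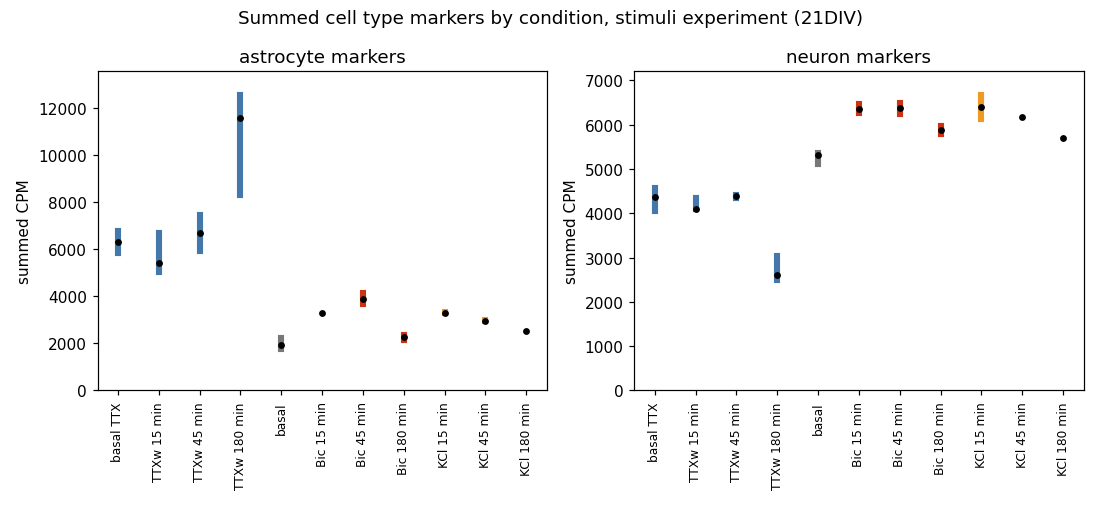
Summed CPM of 10 astrocyte markers (left) and 8 neuron markers (right) on the vertical axes, by condition of the stimuli experiment, with bars from the lowest to the highest library and dots at the medians. The astrocyte sum is 1772 to 2211 CPM in basal, 5827 to 6760.1 CPM in basal TTX and 8293 to 12578 CPM at 180 min of TTXw.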

How the data were processed

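RNA of 55 samples was prepared as CEL-Seq2 libraries, which read the 3′ ends of transcripts. Per the study's methods, the authors aligned reads with STAR to mm10 and counted them with ESAT, and the deposited values are raw counts per RefSeq transcript. Whether molecular identifiers were collapsed is not given in the sources used here. Symbols came from a RefSeq table of GRCm38.p6, which matched 80.8% (maturation) and 80.9% (stimuli) of 97700 and 96722 transcripts. The others, left out, held 18.5% and 19.3% of the counts. The transcript with the highest total stood for its gene, and those of Homer1 were also fitted apart.

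Counts were tested with edgeR 4.0.16 (quasi-likelihood F test, TMM, over 5 CPM in at least 2 samples) in R 4.3.3. Each experiment was 1 fit (27 samples in 11 groups and 28 in 10), and the basal stages were compared on their 6 samples. The SE is the size of the log2 fold change divided by the square root of F. Median counts per library were 2383101 at 21DIV, 2867181 at 7DIV and 5086818 at 23DIV. On simulated data of 3 comparisons with 200 changed genes each, 70.7% of 2-fold and 96.9% of 4-fold changes were called for TTX (11571 genes), 65.3% and 86.7% for KCl at 15 min at 7DIV (11261 genes) and 66.7% and 94.8% for the stages (10194 genes), none in the wrong direction. No 2 libraries of a group agreed within counting error (chi-square per degree of freedom 2.02 to 22.9 over 48 pairs).

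The members, lists and tests were chosen with earlier results of these data known. Besides the members, the text names the 3 genes closest to each in pattern and, from each list, at most 3 with the lowest p after TTX and at 15 min of Bic, of which 2 are not reported here. Alternatives were DESeq2 1.42.0, its size factors, no filter, summed transcripts, a replicate block, the compared groups only, and leaving out each replicate. Summing counted again those transcripts that repeat the counts of another, as in Homer1 and Plk3. Nptx1, Nptx2, Nptxr, Nrn1, Plk2 and Ptgs2 have a single transcript each, so their own counts were unchanged by it. Scaling to 8 neuron markers and the comparisons of neighboring times were chosen after seeing the data.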

Additional observations from a re-analysis of the deposited data

Results flagged for a closer look

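The response of Nptx2 to 15 min of KCl was called different between the stages, with a log2 fold change 1.56 larger at 23DIV than at 7DIV by the interaction term (SE 0.42, adjusted p = 0.0476). Of 19 alternatives, 7 kept this call and 12 lost it. Of the 3 stimulated 23DIV libraries, replicates 1 and 2 lay at 332 and 363 CPM and replicate 3 at 143 CPM, while the basal ones lay from 102 to 113 CPM. Dixon's ratio was computed only for basal TTX, the single group of 4 libraries, where no library of a member stood far from the others. Groups of 3 libraries, such as these at 23DIV, were not tested by it.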

How the results depend on the processing

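Of 4066 values of single genes under the alternatives, 3860 kept their side of the threshold and, but for 176 values called on neither side that changed sign, their direction. Calls were lost in 119, gained in 84. In 3, called on 1 side, the sign turned, all with scaling to neuron markers: Homer1 (0.61) and Plk2 (0.045) at 180 min of TTXw, and Homer1 in TTXw minus Bic at 180 min (0.72). With transcripts summed 14 calls were lost, with scaling to neuron markers 17 and with DESeq2 7. The falls of Plk2, Plk3, Nptx2, Nrn1 and Ptgs2 and the rise of Nptx1 with TTX were called wherever they could be fitted. Plk3 did not pass the filter with transcripts summed in the stimuli experiment. With 0 to 20 counts per 21DIV library, depth limits Plk3 and the short form of Homer1.

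The number of the 8 genes called moved by over 1.5 times as follows. With DESeq2 it was 1 for KCl at 45 min, 0 for KCl against Bic at 45 min, 3 for TTXw minus Bic at 45 min, 1 for KCl at 180 min at 7DIV, 1 for KCl at 15 min at 23DIV, 1 for Bic+4AP at 180 min between stages and 1 for Bic at 180 against 45 min, and with its size factors 2 for TTXw minus Bic at 45 min. Without the filter it was 5 for TTXw at 180 min, 2 for KCl against Bic at 180 min, 3 for TTXw minus Bic at 45 min, 1 for KCl at 180 min at 7DIV, 2 at 23DIV, 2 for KCl at 15 min and 2 for Bic+4AP at 180 min between stages, 1 for Bic at 45 against 15 min and 2 for KCl at 180 against 45 min. With transcripts summed it was 1 for KCl at 45 min and at 15 min at 23DIV, and 0 for KCl against Bic at 45 min, for KCl at 15 min between stages, for Bic at 180 against 45 min and for KCl at 45 against 15 min. In the fit of the compared groups only it was 1 for KCl at 180 min, 2 for KCl against Bic at 180 min, 3 for Bic+4AP at 180 min between stages and 2 for KCl at 180 against 45 min. With scaling to neuron markers it was 1 for KCl at 45 min, 1 for TTXw minus Bic at 180 min, 1 for KCl at 180 min at 7DIV and 3 at 23DIV, 6 for Bic+4AP at 180 min at 23DIV, 2 for Bic+4AP at 180 min between stages and 0 for Bic at 180 against 45 min. The cause was not tested.

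Of same-numbered library pairs, 1 of 96 (stimuli) and 1 of 48 (maturation) had deviations correlated over 0.1. Deviations mirror in groups of 2, so pairing is undecided. With the number as a replicate block, 1 member was called for KCl at 45 min, 1 for TTXw minus Bic at 15 min, 0 at 45 min and 0 for KCl at 15 min between stages. The block ended 9 calls: Nrn1 at 15 min of Bic, Ptgs2 at 45 min of KCl, Plk2 at 180 min of TTXw, Nptx1 and Nptxr at 15, Nptx2 at 45 and Plk2 at 180 min in TTXw minus Bic, Plk3 between the basal stages and Nptx2 with KCl at 15 min between stages.

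With each library left out in turn, the number called ran from 2 to 4 for Bic at 15 min, 2 to 6 at 45 min, 1 to 2 for KCl at 45 min, 0 to 1 at 180 min, 0 to 3 for KCl against Bic and 0 to 3 for TTXw minus Bic at 45 min, 0 to 1 for Bic at 45 against 15 min, 0 to 3 for Bic at 180 against 45 min and 0 to 3 for KCl at 45 against 15 min. At 7DIV it ran from 0 to 1 for KCl at 180 min, at 23DIV from 1 to 3 for KCl at 15 min and 0 to 4 at 180 min, and between stages from 0 to 1 for KCl at 15 min and 0 to 1 for Bic+4AP at 180 min. The log2 fold change of the short form of Homer1 at 45 min of Bic against TTX ran from 1.59 to 2.38.

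Over all genes tested, the number called moved by over 1.5 times as follows, with the count reported here in parentheses and times in min. With DESeq2 there were 1 (0) in KCl vs Bic 15, 3 (0) in 7DIV KCl 15 and Bic+4AP 15, 398 (236) in KCl 15 by stage, 216 (91) in KCl 180 by stage, 5 (1) in Bic+4AP 15 by stage. With no filter there were 150 (92) in KCl 180, 10 (0) in TTXw 15, 104 (46) in TTXw 45, 20 (0) in KCl vs Bic 15, 140 (82) in KCl vs Bic 45, 139 (88) in KCl vs Bic 180, 45 (17) in Bic 45 vs 15, 90 (50) in KCl 45 vs 15, 53 (17) in KCl 180 vs 45, 27 (0) in 7DIV KCl 15, 28 (0) in 7DIV Bic+4AP 15, 21 (0) in 7DIV Bic+4AP 180, 38 (6) in 23DIV Bic+4AP 15, 490 (236) in KCl 15 by stage, 303 (91) in KCl 180 by stage, 23 (1) in Bic+4AP 15 by stage. With transcripts summed there were 581 (896) in Bic 45, 55 (92) in Bic 180, 575 (869) in KCl 15, 32 (92) in KCl 45, 43 (92) in KCl 180, 26 (46) in TTXw 45, 28 (82) in KCl vs Bic 45, 27 (88) in KCl vs Bic 180, 140 (241) in TTXw-Bic 15, 101 (218) in TTXw-Bic 45, 6 (17) in Bic 45 vs 15, 136 (366) in Bic 180 vs 45, 8 (50) in KCl 45 vs 15, 1 (0) in 7DIV Bic+4AP 180, 478 (729) in 23DIV KCl 15, 360 (573) in 23DIV KCl 180, 146 (236) in KCl 15 by stage, 0 (1) in Bic+4AP 15 by stage. With the replicate block there were 199 (411) in Bic 15, 584 (896) in Bic 45, 567 (869) in KCl 15, 36 (92) in KCl 45, 60 (92) in KCl 180, 51 (88) in KCl vs Bic 180, 45 (241) in TTXw-Bic 15, 55 (218) in TTXw-Bic 45, 670 (1178) in TTXw-Bic 180, 98 (233) in 7DIV KCl 180, 81 (236) in KCl 15 by stage, 38 (91) in KCl 180 by stage, 3 (1) in Bic+4AP 15 by stage, 301 (580) in Bic+4AP 180 by stage. With scaling to neuron markers there were 980 (411) in Bic 15, 1680 (896) in Bic 45, 5448 (2470) in Bic 15 vs TTX, 5631 (2333) in Bic 45 vs TTX, 4907 (2964) in Bic 180 vs TTX, 1660 (869) in KCl 15, 6270 (1685) in TTXw 180, 678 (241) in TTXw-Bic 15, 409 (218) in TTXw-Bic 45, 6770 (1178) in TTXw-Bic 180, 28 (17) in KCl 180 vs 45, 969 (573) in 23DIV KCl 180, 153 (236) in KCl 15 by stage. In the fit of the compared groups there were 180 (92) in KCl 180, 1 (0) in KCl vs Bic 15, 238 (88) in KCl vs Bic 180, 627 (366) in Bic 180 vs 45, 156 (50) in KCl 45 vs 15, 105 (17) in KCl 180 vs 45, 1 (0) in 7DIV Bic+4AP 15 and 180, 467 (729) in 23DIV KCl 15, 349 (573) in 23DIV KCl 180, 45 (91) in KCl 180 by stage, 0 (1) in Bic+4AP 15 by stage.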

Other observations

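Genes of the lists named here were chosen after their values were seen. Between the stages, 9 of 17 tested partners, targets and enzymes were called higher at 23DIV and 1 lower, with a median log2 fold change of 0.77, beside 18.2% and 14.9% of all genes. Among them were Gria1 (0.77 ± 0.14) and Gria3 (2.33 ± 0.25), both AMPA receptor subunits, and Pla2g4a (3.91 ± 0.74), while Ptger3 was lower (-1.57 ± 0.24). Ptger3 was thus lower where Ptgs2 was higher in that comparison. If Pla2g4a passed the filter on low counts only through the 23DIV libraries, its direction was partly fixed by the filter.

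Of 15 tested other genes named in work on scaling, 3 were called higher and 2 lower after 180 min of Bic+4AP at 23DIV, beside 14.2% of all genes called. Only those Bic+4AP libraries have header letter E, so letter and treatment cannot be told apart. Arc (2.10 ± 0.35), Bdnf (1.21 ± 0.25) and the integrin subunit Itgb3 (2.74 ± 0.90) were higher, and the kinases Camk4 (-1.51 ± 0.22) and Camkk2 (-1.15 ± 0.19) were lower. Camk4 and Camkk2 were also called lower after 15 min of KCl (-1.09 ± 0.19 and -0.98 ± 0.17) and 180 min of KCl (-0.93 ± 0.19 and -1.01 ± 0.17), set against the same 3 basal libraries.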
